A study of Mus musculus with 6 samples.

Results

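The 10 genes described here are the 3 orphan nuclear receptors *Nr4a1*, *Nr4a2* and *Nr4a3* together with 7 immediate-early genes, *Fos*, *Fosb*, *Jun*, *Junb*, *Egr1*, *Ier2* and *Atf3*, measured by RNA-seq in the colon. They were found by gene symbol among the 17778 genes listed, and all 10 were present. The list was selected on the FPKM values of these OP and OR mice, with their differences known, so the differences between groups are given as values and without a test. The samples came from male wild-type C57BL/6J mice, an inbred strain commonly used to study diet-induced obesity, fed a diet with 60% fat for 16 weeks and harvested at 21 weeks of age after pentobarbital anaesthesia. Of 42 mice on this diet, the 10 that gained the most weight were named obesity-prone (OP) and the 10 that gained the least obesity-resistant (OR), and the colons of 3 OP and 3 OR mice were sequenced, with 1 library per mouse. The 6 mice therefore shared strain, genotype and diet, and OP and OR are the ends of a natural spread in weight gain, not a treatment. Levels are in FPKM, the fragments per kilobase of transcript relative to all mapped fragments, which corrects for gene length and library size.

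Immediate-early genes are switched on within minutes of a stimulus without new protein synthesis, and their transcripts are short-lived. Signals through ERK and other MAP kinases reach them by serum response factor and its ETS partners, and signals through cAMP or calcium reach them by CREB, which binds the cAMP response element (CRE). Fos and Jun proteins pair to form AP-1, whereas the Nr4a receptors lack a conventional ligand pocket, so that their activity follows their amount. In the intestine these genes are known to respond to growth factors, microbial products and injury, and they are expressed by epithelial, stromal and immune cells alike.

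OP and OR mice were fully apart in 4 of the 10 genes. *Nr4a1*, *Fosb* and *Nr4a3* were lower in every OP mouse than in any OR mouse, and *Jun* was higher in every OP mouse, although *Jun* overlapped after another scaling of the mice. *Nr4a1* was 5.0 times as high in OR as in OP mice, *Nr4a3* 3.19 times and *Fosb* 2.95 times. *Jun* was 1.57 times as high in OP as in OR mice. In the remaining 6 genes the groups overlapped. Differences are given below on the scale of log2(FPKM + 1), OP minus OR, with the standard error of the limma-trend model fitted to the 13520 genes that reached 0.5 FPKM in at least 3 mice. Adding 1 shrinks the differences of genes with low levels. On it, 7 of the 10 genes were lower and 3 higher in OP mice, and their median was −0.60, where the median of all 13520 genes was −0.10 and 70.1% of all genes were lower. The 5th and 95th percentiles of all genes were −0.57 and 0.29.

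Calls needed a Benjamini-Hochberg q-value below 0.2 and a fold of 1.2 or more, or of 0.83 or less. None of the 10 genes was called, and of all genes 0.0222% were called lower and 0% higher in OP mice. The groups did not overlap for 3 of the 10 genes with OP lower and for 1 with OP higher. Of all genes tested, 6.81% had every OP mouse below every OR mouse and 1.63% had every OP mouse above. Since these same values chose the genes, nothing is read from those shares.

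**Figure D1:**
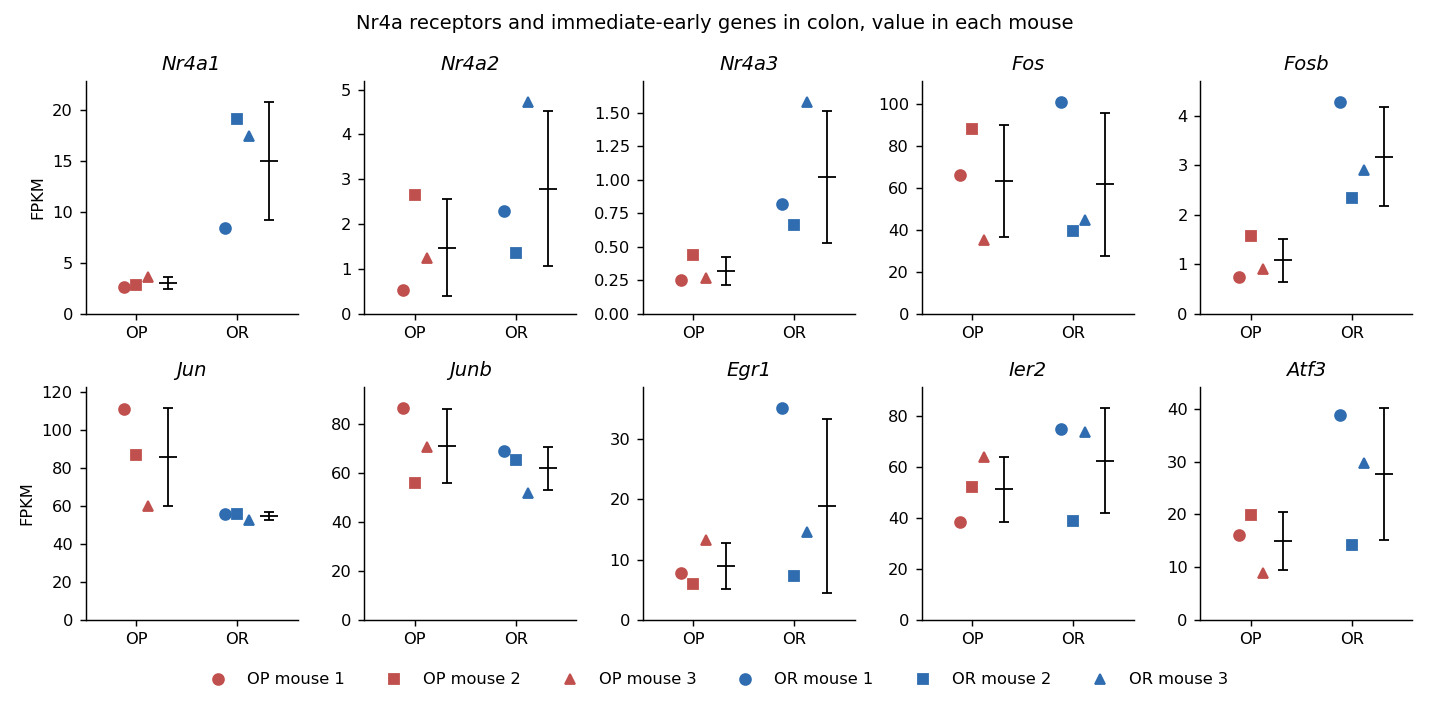
FPKM of each of the 10 genes (linear axes from 0, a scale of its own per panel) in 3 OP and 3 OR mice; symbols are mice, horizontal marks beside them the group means and error bars the SD. The OP and OR points are apart in *Nr4a1*, *Nr4a3*, *Fosb* and *Jun*, and *Fos* reaches 101 FPKM in 1 OR mouse while the other 2 OR mice lie at 39.7 and 44.7.

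The 250 bases before the transcription start of the 4 genes whose groups did not overlap, and of *Fos* as the founding AP-1 gene, in which they overlapped, are shown to print the letters that were searched for known response elements. They were taken from RefSeq on the mouse build GRCm38.p6, on the strand of the gene, 5′ to 3′. Capitals mark matches to the CRE core TGACG, to the EGR site GCGNGGGCG or to the variant ATF/AP-1 site TGACATCA, each searched on both strands. The TATA box TATAAA was searched in the same way and is not marked by capitals. The sequences lie at chr15:101266596-101266845 (plus strand) for *Nr4a1*, chr4:48045055-48045304 (plus) for *Nr4a3*, chr7:19310046-19310295 (minus) for *Fosb*, chr4:95052223-95052472 (minus) for *Jun* and chr12:85473640-85473889 (plus) for *Fos*.
Nr4a1: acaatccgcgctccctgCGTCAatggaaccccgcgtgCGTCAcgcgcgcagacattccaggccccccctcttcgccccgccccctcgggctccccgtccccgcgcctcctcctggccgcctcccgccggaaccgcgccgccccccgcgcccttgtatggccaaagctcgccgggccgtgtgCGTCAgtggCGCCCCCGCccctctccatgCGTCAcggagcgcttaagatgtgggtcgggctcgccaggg
Nr4a3: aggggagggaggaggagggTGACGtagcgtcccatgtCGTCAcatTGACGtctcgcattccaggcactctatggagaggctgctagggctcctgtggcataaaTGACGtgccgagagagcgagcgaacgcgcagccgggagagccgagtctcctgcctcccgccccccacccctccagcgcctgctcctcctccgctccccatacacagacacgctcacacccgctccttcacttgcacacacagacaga
Fosb: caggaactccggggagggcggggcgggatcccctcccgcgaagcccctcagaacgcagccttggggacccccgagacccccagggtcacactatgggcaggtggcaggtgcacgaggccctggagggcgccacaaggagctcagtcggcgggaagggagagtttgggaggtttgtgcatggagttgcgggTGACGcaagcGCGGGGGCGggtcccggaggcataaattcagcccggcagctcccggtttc
Jun: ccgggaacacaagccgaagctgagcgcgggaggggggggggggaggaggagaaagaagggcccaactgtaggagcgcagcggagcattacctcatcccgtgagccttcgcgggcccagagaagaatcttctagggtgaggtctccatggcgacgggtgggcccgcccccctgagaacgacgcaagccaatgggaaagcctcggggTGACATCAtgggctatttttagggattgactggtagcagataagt
Fos: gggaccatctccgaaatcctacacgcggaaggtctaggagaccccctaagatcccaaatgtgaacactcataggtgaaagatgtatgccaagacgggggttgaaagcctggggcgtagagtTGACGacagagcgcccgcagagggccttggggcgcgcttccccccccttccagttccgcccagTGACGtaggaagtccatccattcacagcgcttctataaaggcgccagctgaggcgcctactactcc

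*Nr4a1* and *Nr4a3* each held the CRE core at 4 places, *Fos* at 2 and *Fosb* at 1, and *Jun* at none. *Nr4a1* had an EGR site, the element bound by Egr1 and its relatives, at positions −60 to −52 from the start, and *Fosb* had one at −50 to −42. In *Jun* the only marked match was TGACATCA at −45 to −38, a site known to bind Jun with Atf2. *Fos* alone of the 5 held a TATA box, at −33 to −28. Of the 8 members found in the promoter table, 7 held the CRE core, as did 17.8% of the 32851 mouse promoters in it. The EGR site was in 3 of the 8 (*Nr4a1*, *Nr4a2* and *Fosb*) and in 4.70% of all promoters, and TGACATCA in 1 of the 8 and in 2.93%. The TATA box was in 2 of the 8 (*Fos* and *Nr4a2*) and in 12.4% of all promoters. The full CRE TGACGTCA, the AP-1 site TGANTCA, the NBRE AAAGGTCA to which Nr4a receptors bind as monomers, and the CArG box of serum response factor were in none of the 8 windows. Their shares among all promoters were 1.55%, 6.75%, 1.34% and 1.47%. The ETS core GGAA, not marked above, was in all 8 windows and in 93.4% of all promoters. These matches are letters in a window and not measured binding.

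All 6 libraries had the epithelial genes of a colon in abundance, with *Epcam*, the epithelial adhesion molecule, at 935 to 1188 FPKM and *Krt8*, a keratin of simple epithelia, at 2434 to 3649 FPKM. FPKM totals were 585350 to 600028 and 16287 to 16619 genes were above 0. Read totals cannot be recovered from FPKM, so the depth and the counting error are unknown. Several libraries stood apart from others of their own group. *Car1*, the carbonic anhydrase of surface colonocytes, was at 14584 FPKM in OP mouse 1 and 15723 in OR mouse 2, against 1054 to 6339 in the other 4. *Cd79a*, a B cell receptor chain, was at 39.8 FPKM in OP mouse 3 and at 3.05 to 5.67 elsewhere. *Hspa1a*, the inducible heat shock protein, was at 234 FPKM in OR mouse 3 and at 6.00 to 40.6 elsewhere. In bulk tissue, fewer cells of a type and less RNA per cell cannot be told apart.

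Among the receptors, *Nr4a1* (Nur77), the member induced most readily in many cell types, stood at 2.58, 2.79 and 3.65 FPKM in the OP mice and at 8.41, 19.2 and 17.5 FPKM in the OR mice. The lowest OR mouse was 2.3 times the highest OP mouse, and OR mouse 1 was set apart below the other 2 OR mice. The means were 3.01 ± 0.567 and 15.0 ± 5.79 FPKM (SD, n = 3 each), and the log2 difference was −1.93 (SE 0.31). Leaving out each mouse in turn gave −2.28 to −1.73, and scaling the mice by the median of ratios gave −1.82.

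*Nr4a3* (Nor1), often induced together with it, was at 0.25, 0.44 and 0.27 FPKM in the OP mice and at 0.82, 0.66 and 1.58 FPKM in the OR mice. Every OP value lay under the 0.5 FPKM minimum, so the gene entered the model through its OR mice alone. The means were 0.320 ± 0.104 and 1.02 ± 0.492 FPKM (SD, n = 3 each) and the log2 difference was −0.59 (SE 0.21). With a pseudocount of 0.1 in place of 1 it was −1.36, which shows how far the scale compresses a gene at this level.

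*Nr4a2* (Nurr1) was at 0.53, 2.65 and 1.24 FPKM in the OP mice and at 2.3, 1.36 and 4.72 FPKM in the OR mice. The groups overlapped, with OP mouse 2 above OR mice 1 and 2, and the highest OP value was 5.0 times the lowest. The means were 1.47 ± 1.08 and 2.79 ± 1.73 FPKM (SD, n = 3 each) and the log2 difference was −0.61 (SE 0.41), running from −0.94 to −0.27 as mice were left out. The 3 receptors added up to 3.36, 5.88 and 5.16 FPKM in the OP mice and to 11.5, 21.2 and 23.8 FPKM in the OR mice. *Nr4a1* made up 47.4% to 76.8% of this sum in the OP mice and 72.9% to 90.5% in the OR mice, so that the sums were apart while the shares overlapped.

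Of the AP-1 genes, *Fosb*, which encodes the subunit whose truncated form is known to accumulate with repeated stimulation, was at 0.74, 1.58 and 0.91 FPKM in the OP mice. The OR mice were at 4.28, 2.35 and 2.91 FPKM. All 3 OR mice were above all 3 OP mice, at means of 3.18 ± 0.993 against 1.08 ± 0.444 FPKM (SD, n = 3 each). The log2 difference was −1.0 (SE 0.25), with a range of −1.17 to −0.82 as mice were left out, and −1.5 with a pseudocount of 0.1.

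*Fos*, the founding member of the family, was at 66.3, 88.4 and 35.3 FPKM in the OP mice and at 101, 39.7 and 44.7 FPKM in the OR mice. Each group held low and high mice, with a ratio of highest to lowest of 2.51 in OP and 2.55 in OR. The means were 63.3 ± 26.7 and 61.8 ± 34.1 FPKM (SD, n = 3 each) and the log2 difference was 0.07 (SE 0.43). It ran from −0.22 to 0.48 as mice were left out, so its sign turned with the choice of mice.

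*Jun* belongs to the family that Fos proteins need as partners to bind DNA. It was at 111, 86.6 and 59.6 FPKM in the OP mice and at 55.9, 55.7 and 52.5 FPKM in the OR mice. The OR mice lay within 1.07 times of each other and the OP mice within 1.86 times, and the lowest OP mouse was 1.07 times the highest OR mouse. The means were 85.7 ± 25.6 and 54.7 ± 1.90 FPKM (SD, n = 3 each), and the log2 difference was 0.60 (SE 0.22). With median-of-ratios scaling it was 0.73, and the groups then overlapped, since OP mouse 3 at 54.8 lay below OR mouse 2 at 56.6. *Junb*, a Jun relative often opposed to it, was at 86.4, 56.0 and 70.6 FPKM in the OP mice and at 68.8, 65.1 and 51.9 FPKM in the OR mice. These overlapped, and the log2 difference was 0.18 (SE 0.19).

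Ratios of genes within a mouse do not depend on how the mice are scaled, and those given here were picked after the levels had been seen. *Fosb* was 0.0112, 0.0179 and 0.0258 times the *Fos* level in the OP mice and 0.0424, 0.0592 and 0.0652 times in the OR mice. *Jun* was 150, 54.8 and 65.5 times the *Fosb* level in the OP mice and 13.1, 23.7 and 18.0 times in the OR mice. Both ratios kept the groups apart, as did *Nr4a1* to *Jun*, at 0.0233 to 0.0612 in OP and 0.151 to 0.345 in OR mice. For *Jun* to *Fosb* and *Nr4a1* to *Jun* this follows from the FPKM levels, where the groups were already apart in opposite directions. The ratios of *Jun* to *Fos*, *Jun* to *Junb*, *Egr1* to *Fos* and *Nr4a1* to *Fos* overlapped.

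Within the sum of the 7 Fos and Jun genes, which was 404 ± 78.4 FPKM in OP and 356 ± 52.2 FPKM in OR mice (SD, n = 3 each), the Fos family made up 34.6% ± 6.88 in OP and 33.5% ± 4.29 in OR mice, which overlapped. *Jun* took 22.9%, 21.7% and 18.2% of the sum in the OP mice against 13.5%, 17.5% and 15.8% in the OR mice, without overlap. *Fosb* took 0.276% ± 0.122 in OP and 0.881% ± 0.147 in OR mice, also without overlap. The share of *Fosl1* was apart as well, at 0.128% to 0.236% in OP and 0.442% to 3.48% in OR mice. The shares of *Fos* (15.5% ± 5.91 and 16.7% ± 6.60) and *Junb* (17.8% ± 3.78 and 17.5% ± 2.55) overlapped. *Jund*, the constitutive Jun protein, had the largest mean share in both groups, at 33.5% ± 6.19 in the OR mice and 26.7% ± 7.03 in the OP mice.

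**Figure D2:**
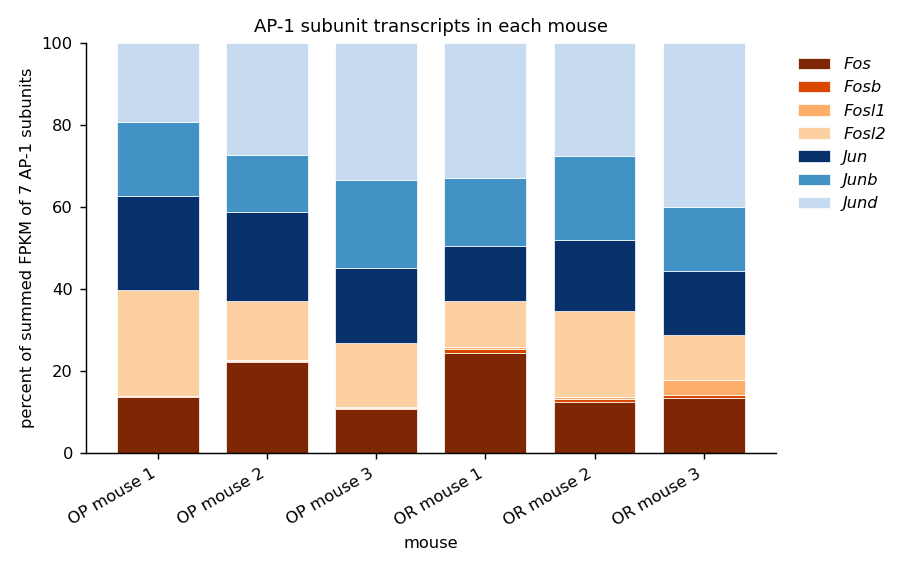
Stacked bars, 1 per mouse, of the share in percent (linear axis from 0 to 100) of the summed FPKM of *Fos*, *Fosb*, *Fosl1*, *Fosl2*, *Jun*, *Junb* and *Jund* that each gene took. *Jun* spans 18.2% to 22.9% in OP and 13.5% to 17.5% in OR mice, while *Fosb* is a thin band of 0.153% to 1.03%.

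*Egr1*, the zinc finger factor that reads growth factor and MAP kinase signals, was at 7.83, 5.92 and 13.3 FPKM in the OP mice and at 35.1, 7.20 and 14.5 FPKM in the OR mice. OR mouse 1 stood far above the rest, and the other 2 OR mice were within or close to the OP range. The means were 9.01 ± 3.82 and 19.0 ± 14.5 FPKM (SD, n = 3 each), and the log2 difference of −0.80 (SE 0.53) became −0.24 without OR mouse 1.

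*Ier2*, a nuclear protein of the growth factor response, was at 38.2, 51.9 and 63.6 FPKM in the OP mice and at 74.8, 38.8 and 73.6 FPKM in the OR mice. Here OR mouse 2 fell to the low end of the OP mice, and the log2 difference was −0.25 (SE 0.29). *Atf3*, a stress-induced factor that pairs with Jun proteins and often represses, was at 16.1, 19.8 and 8.91 FPKM in the OP mice and at 38.9, 14.3 and 29.8 FPKM in the OR mice. OR mice 1 and 3 were above all OP mice and OR mouse 2 was within them, so the groups overlapped. The means were 14.9 ± 5.55 and 27.7 ± 12.5 FPKM (SD, n = 3 each), a log2 difference of −0.80 (SE 0.40) that ran from −1.2 to −0.49 as mice were left out.

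**Figure D3:**
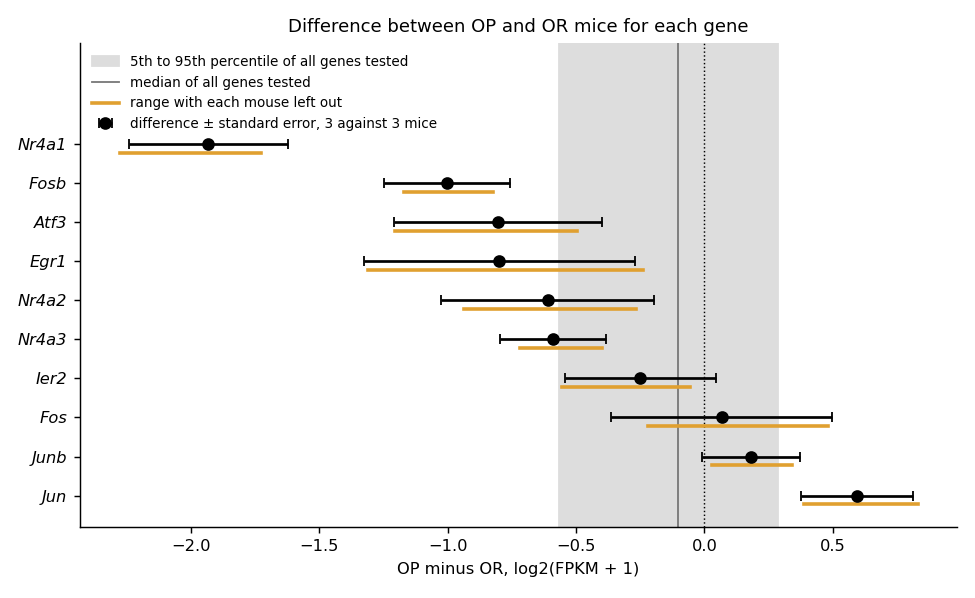
Difference OP minus OR in log2(FPKM + 1) for the 10 genes, black points with error bars of 1 SE (3 against 3 mice); orange lines span the values with each mouse left out in turn, and the grey band and line are the 5th to 95th percentile and the median of all genes tested. *Nr4a1* lies at −1.93 and *Jun* at 0.60, and the orange line of *Fos* crosses 0, from −0.22 to 0.48.

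Per length, the 10 genes spanned the expressed range. *Jun*, *Junb*, *Fos* and *Ier2* lay at percentiles 89.8, 89.3, 88.5 and 87.5 of mean level among the genes tested, *Atf3* at 69.3, *Egr1* at 58.6 and *Nr4a1* at 47.6. *Nr4a2* and *Fosb* lay at 18.2 and *Nr4a3* at 3.48. Of the 3 genes lower in all OP mice, *Nr4a3* and *Fosb* were thus among the 3 lowest in level. *Jun* was the highest of the 10.

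The 10 genes did not move as a block from mouse to mouse. OR mouse 1 had the highest value of 5 genes (*Fos*, *Fosb*, *Egr1*, *Ier2* and *Atf3*), OR mouse 3 of *Nr4a2* and *Nr4a3*, OR mouse 2 of *Nr4a1*, and OP mouse 1 of *Jun* and *Junb*. OP mouse 1 also had the lowest FPKM of 5 genes (*Nr4a1*, *Nr4a2*, *Nr4a3*, *Fosb* and *Ier2*). Its values were low in genes at large, with a median-of-ratios factor of 0.80 against 0.98 to 1.11 in the other mice. After scaling by that factor, OP mouse 1 was the lowest only in *Nr4a2*. Without OP mouse 1 the median log2 difference of all genes was −0.01, against −0.10 with all mice. Averaged over the 10 genes, the deviations from each gene's mean over the 6 mice were −0.31, −0.12 and −0.34 on the log2 scale in the OP mice against 0.51, −0.10 and 0.36 in the OR mice. OR mouse 2 thus lay just above OP mouse 2 and far below the other OR mice. For the 3 receptors alone the values were −0.80, −0.29 and −0.48 in OP mice and 0.22, 0.38 and 0.97 in OR mice, with the groups apart. For *Egr1*, *Ier2* and *Atf3* they were −0.42, −0.30 and −0.21 in OP mice and 0.98, −0.50 and 0.45 in OR mice, with OR mouse 2 the lowest of all 6.

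Within the OR group, OR mouse 2, which had the most *Nr4a1* at 0.41 above its group mean, was below that mean in *Egr1* (−1.02), *Atf3* (−0.80), *Ier2* (−0.61), *Nr4a2* (−0.59) and *Fos* (−0.50). OR mouse 1, which was highest in *Egr1* (1.12), *Fos* (0.83) and *Atf3* (0.59), had the least *Nr4a1* (−0.69). In the OP group, OP mouse 3 was below its group mean in *Fos* (−0.73), *Atf3* (−0.62) and *Jun* (−0.47) and above it in *Egr1* (0.58) and *Ier2* (0.34).

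**Figure D4:**
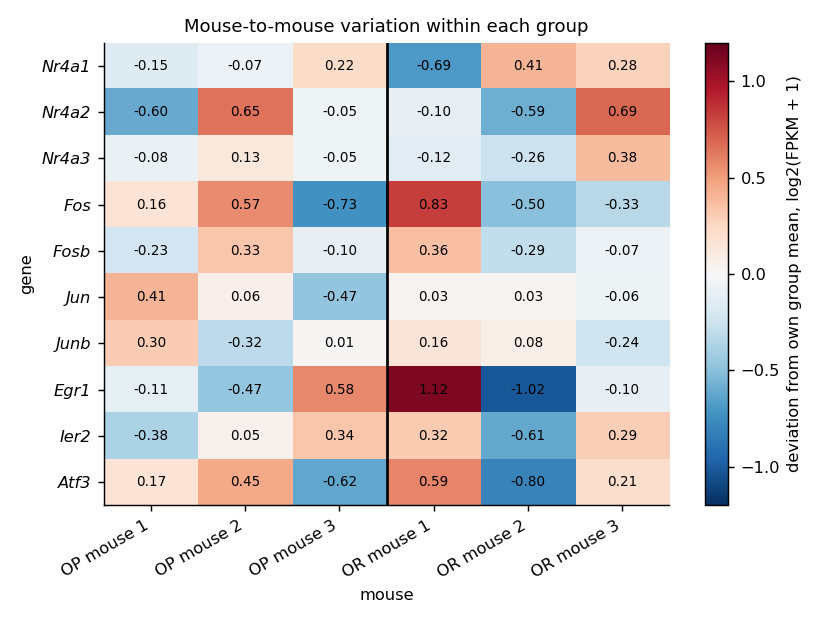
Deviation of each mouse from its own group's mean in log2(FPKM + 1), 10 genes by 6 mice, with the value in each cell and colours from blue (below the mean) to red (above). OR mouse 1 and OR mouse 2 have opposite signs in 6 of the 10 genes, with *Egr1* at 1.12 and −1.02.

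Likeness of 2 profiles was measured as the mean absolute difference, over the 6 mice, of log2(FPKM + 1) values centred and scaled to an SD of 1, where 0 is identical. Over the 45 pairs of the 10 genes it had a median of 0.919 and ran from 0.431 to 1.54. The closest pairs were *Nr4a2* with *Nr4a3* (0.431), *Nr4a1* with *Nr4a3* (0.449), *Nr4a3* with *Fosb* (0.452) and *Fosb* with *Atf3* (0.453). *Egr1* and *Ier2* followed at 0.578. The farthest pairs were *Nr4a1* with *Jun* (1.54) and *Fosb* with *Jun* (1.5). Both the group difference and the 6 shared libraries enter these values.

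Of 11056 genes outside the lists with at least 1 FPKM in all mice, those most like the mean profile of the 10 included *Mfn1*, which fuses mitochondria (0.373), *Desi2* (0.376), *Atl2*, an atlastin of the endoplasmic reticulum (0.377), *Chst12*, a chondroitin sulfotransferase (0.377), *Pygm*, muscle glycogen phosphorylase (0.380), *Rsph9*, a radial spoke protein (0.380), and *Ncoa4*, the ferritin receptor of autophagy (0.380). The median of all these candidates was 0.732. Of the 10 genes themselves, *Atf3* was at 0.406 and *Fosb* at 0.504 from this mean profile, while *Jun* was at 0.998 and *Junb* at 0.989. The genes named from outside the lists had log2 differences from −0.46 (*Pygm*) to −0.07 (*Mfn1*).

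The other genes of the response were taken from 5 lists holding 76 genes, of which 68 were tested, and these lists too were drawn up with results of these data known. Of the 68, 48 were lower and 20 higher in OP mice, with a median log2 difference of −0.18. None was called by limma-trend with Benjamini-Hochberg adjustment, where the lowest q was 0.858. At an unadjusted p below 0.05, 9 were lower and 1 was higher, and of all genes 3.53% were lower and 0.503% higher at that p. The groups did not overlap for 11 genes with OP lower (16.2% of the 68, against 6.81% of all genes) and for 1 with OP higher (1.47%, against 1.63%).

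Among 13 other AP-1 and related genes, 11 were lower, with a median of −0.17. *Fosl1* (Fra-1), a Fos protein of delayed induction, was at 0.79, 0.94 and 0.42 FPKM in the OP mice and at 2.43, 1.41 and 11.6 FPKM in the OR mice. The groups were apart, with OR mouse 3 far above the other 5 mice, and the log2 difference of −1.47 (SE 0.57) did not pass the test (limma-trend, adjusted p = 0.945). *Jdp2*, a repressor that pairs with Jun, had a log2 difference of −0.68 (SE 0.21) and *Atf4*, the factor of the integrated stress response, of −0.50 (SE 0.24). *Fosl2* (Fra-2), a Fos protein of slower induction, was at 125 FPKM in OP mouse 1 and 36.4 to 66.8 FPKM in the other 5, a log2 difference of 0.56 (SE 0.36), and *Batf*, an AP-1 factor of lymphocytes, was at 0.08 (SE 0.27).

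Of the Egr relatives and their corepressors, *Egr2*, *Egr3* and *Egr4* were too low to be tested, and *Egr4* was listed at 0 in some mice. *Nab2* and *Nab1*, which hold Egr proteins in check, had log2 differences of −0.48 (SE 0.34) and −0.24 (SE 0.15). Of 18 further early response factors tested, 12 were lower, with a median of −0.15. *Klf2*, a factor known from endothelium and lymphocytes, was at 3.91, 6.60 and 7.85 FPKM in the OP mice and at 16.5, 9.02 and 17.6 FPKM in the OR mice. Those groups were apart, with a log2 difference of −1.10 (SE 0.32, limma-trend adjusted p = 0.929). *Cebpd*, a factor of the acute phase, was at −0.70 (SE 0.19) with groups apart, *Myc* at −0.81 (SE 0.43) and the antiproliferative *Btg1* at 0.48 (SE 0.26). *Klf4*, a factor of differentiating epithelium, was at 0.27 (SE 0.32).

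Of 26 feedback genes, which encode phosphatases, RNA decay factors and inhibitors that end the response, 16 were lower and 10 higher, with a median of −0.07. *Sik1*, a kinase induced by cAMP that restrains CREB coactivators, had the lowest difference, with levels of 1.75 ± 0.714 against 3.94 ± 1.5 FPKM (SD, n = 3 each) and −0.83 (SE 0.29) on the log2 scale. *Gadd45a*, a gene of the DNA damage response, was at 0.53 (SE 0.22), and *Nfkbiz*, an atypical inhibitor of NF-kappaB, at 0.39 (SE 0.17) with every OP mouse above every OR mouse. Of 9 secreted or secretion-related products tested, 7 were lower, with a median of −0.50. *Ereg*, an EGF receptor ligand, was at 1.48, 0.87 and 0.92 FPKM in OP and 3.12, 2.13 and 6.15 FPKM in OR mice, and the log2 difference was −1.12 (SE 0.32, limma-trend adjusted p = 0.866). *Ccn2*, a matrix protein induced by mechanical load, was at −0.71 (SE 0.25), also with groups apart, and *Thbs1*, a matrix glycoprotein, at −0.83 (SE 0.44). The 2 genes that were higher in mean were *Edn1*, the vasoconstrictor peptide, at 0.51 (SE 0.48) and *Lif*, a cytokine, at 0.08 (SE 0.29).

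**Figure D5:**
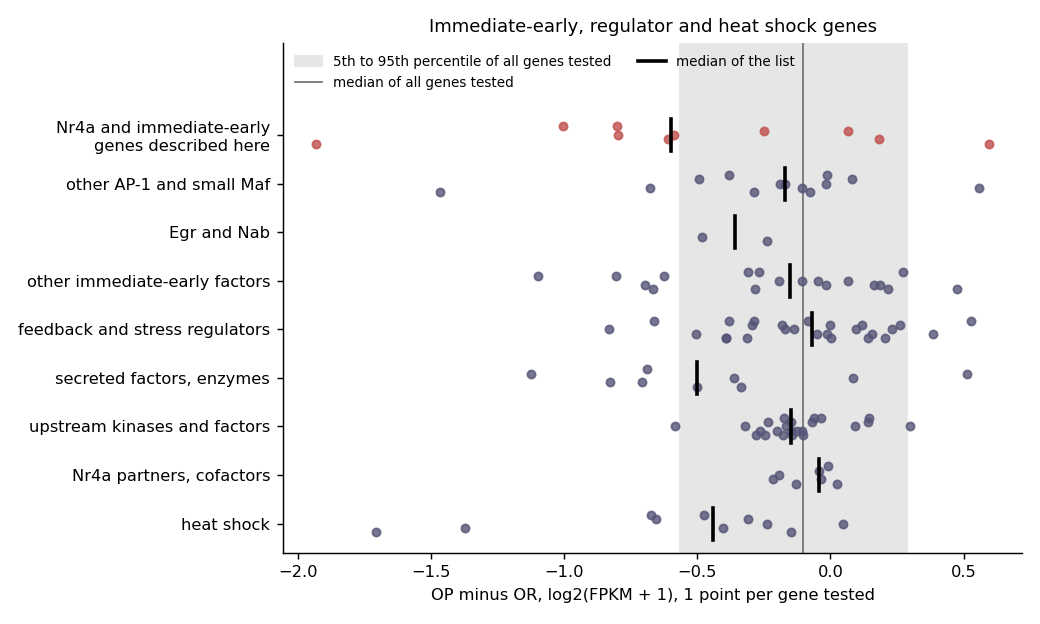
Difference OP minus OR in log2(FPKM + 1) of every tested gene (points) in the 10 genes and in each of the other lists, with the median of each list as a black bar, the median of all genes, −0.10, as a grey line and their 5th to 95th percentile as a grey band. The median of the 10 genes is −0.60, that of the secreted products −0.50 and that of the feedback genes −0.07.

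Of 23 upstream genes, which are kinases, CREB family members and coactivators, and serum response factor and its partners, 19 were lower, with a median of −0.15. *Elk3*, an ETS partner of serum response factor, was the lowest at −0.58 (SE 0.22), and *Map2k1*, the ERK kinase, the highest at 0.30 (SE 0.25). *Srf* itself and *Elk3* were lower in every OP mouse, and *Srf* is named after its values were seen. Of 7 receptor partners and cofactors tested, which Nr4a receptors use or meet, the median was −0.04. *Rxra*, the partner of Nr4a1 and Nr4a2 on DNA, was at 0.03 (SE 0.19) and *Ncoa1*, a coactivator, at −0.19 (SE 0.17). None of the genes in either list was called.

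Heat shock genes, induced by stress of many kinds, were lower in OP mice for 9 of 10, with a median of −0.44 and the groups overlapping in each. *Hspa1a* was at 13.0, 19.2 and 6.00 FPKM in the OP mice and at 40.6, 6.07 and 234 FPKM in the OR mice. *Hspa1b*, a near-identical copy whose reads may be divided with it, followed the same order. In *Hspa1a*, OR mouse 2 was at the low end and OR mouse 3 at the high end. OR mouse 2 had the most *Nr4a1*, and OR mouse 3 the most *Nr4a2* and *Nr4a3*. The part of these genes in the differences of the 10 genes was not tested.

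Markers of other cells moved with the groups too. All 7 markers of blood endothelium were lower in OP mice, summing to 11.3 to 18.8 FPKM against 21.7 to 37.5 FPKM, and the highest sum was in OR mouse 3. All 7 macrophage markers were lower, at 32.4 to 88.5 against 94.9 to 127 FPKM in sum. All 7 fibroblast markers were lower, at 71.8 to 138 against 205 to 442 FPKM. The sums of the groups did not overlap for these 3 lists, nor for the haemoglobin list described next. No marker of the endothelial, macrophage and fibroblast lists was at 0 in any mouse.

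The haemoglobin genes, which measure blood left in the tissue, were lower for all 4 tested, at 23.0 to 39.7 against 54.6 to 125 FPKM for the whole list, highest in OR mouse 2, and *Alas2*, the erythroid haem enzyme, was listed at 0 in 1 mouse. The 5 adipocyte markers were all lower in mean log value, at 8.43 to 58.6 against 31.8 to 214 FPKM, highest in OR mouse 1. *Adipoq*, *Plin1*, *Retn* and *Cfd* were listed at 0 in OP mouse 2. The 7 smooth muscle markers were all lower, at 1407 to 2242 against 1742 to 3222 FPKM, also highest in OR mouse 1, the mouse with the most *Fos*, *Fosb*, *Egr1*, *Ier2* and *Atf3*.

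Of the lymphocyte markers, 3 of 5 tested were lower, at 54.1 to 166 against 141 to 175 FPKM in sum, with none at 0. The 6 neuronal and glial markers were lower for 3, at 20.0 to 39.7 against 18.6 to 41.5 FPKM, with none at 0. Of the mast cell and granulocyte markers, 2 of 4 tested were lower, at 10.3 to 20.2 against 14.6 to 27.6 FPKM, with *Cpa3* and *S100a8* listed at 0 in some mice. The 11 epithelial markers were lower for 4 and higher for 7, with a median of 0.02 and sums of 11730 to 23800 against 12540 to 25240 FPKM. *Car1* alone gave 14584 of the 23800 FPKM in OP mouse 1 and 15723 of the 25240 in OR mouse 2. *Muc2*, also in this list, ran from 17.6 FPKM in OP mouse 1 to 933 in OR mouse 3. The part of all these cell types, smooth muscle among them, in the levels and differences of the 10 genes was not tested.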

How the data were processed

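RNA of the colon of 3 OP and 3 OR mice was sequenced as mRNA-enriched, strand-specific libraries, 1 per mouse. Samples were grouped by their labels, and replicates are separate mice. The values deposited by the authors are FPKM in a column for each mouse, and all columns were used. The methods name SOAPnuke for read filtering, Bowtie2 for alignment to a gene set and RSEM for quantification; the submitters' processing notes name HISAT2 2.0.4 and the build GRCm39, and which tool made the values was not settled. RSEM divides reads shared by near-identical genes, which can move a value between copies. FPKM keeps no read totals, so the depth, and any count test, was not available.

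Genes with at least 0.5 FPKM in at least 3 mice (13520) were taken as log2(FPKM + 1), and the difference between OP and OR was estimated in limma 3.58.1 under R 4.3.3 with a trended prior variance (limma-trend), no covariate and with Benjamini-Hochberg adjustment over all of them. The model was tested on simulated data. Figures and lists were made with Python 3.11.15, pandas 2.3.3 and matplotlib 3.10.9. The members and the gene lists were chosen with earlier results of these data known, so the members carry no p-value. Named were all 10 members, genes among the 3 lowest and 2 highest log2 differences of each other list, and genes among the 8 most like the members' mean profile, with exceptions marked; some genes that this rule names are not reported here. Promoters came from RefSeq tables on GRCm38.p6, matched by symbol for 8 of 10 members, without *Egr1* and *Ier2*; no coordinates were converted to the authors' build. Alternatives were limma without its trend, median-of-ratios and TPM scaling, a pseudocount of 0.1, 2 other filters, sample weights, a replicate block and leaving out each mouse.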

Additional observations from a re-analysis of the deposited data

How the results depend on the processing

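Over 14 alternatives, 177 of 193 recomputed values counted as unchanged, 4 values of *Fos* with a turned sign among them. For this, a count of called genes had to be equal or close, as with 2 against 3 lower genes in limma without its trend. A log2 difference had to move by less than the spread between replicates. The 3 genes called lower by limma-trend became 0 with median-of-ratios scaling, TPM, a pseudocount of 0.1, no filter on low values, a minimum of 1 FPKM in all 6 mice or the replicate block, at unadjusted counts of 317 to 656 lower genes, and 5 with sample weights. Leaving out 1 mouse gave 0 to 1, with 1 gene without OP mouse 2 and 0 without any other mouse, at unadjusted counts of 231 to 1104; the cause was not tested. The median log2 difference of the 10 genes, −0.60, was −0.25 with at least 1 FPKM in all 6 mice, because *Nr4a2*, *Nr4a3* and *Fosb* then drop out and 7 genes are left, and −0.81 to −0.33 as mice were left out. *Fos* turned from 0.07 to −0.01, −0.22, −0.18 and −0.10 without OP mouse 1, OP mouse 2, OR mouse 2 and OR mouse 3. Median-of-ratios scaling moved the median of all genes from −0.10 to 0.01 and that of the 10 genes to −0.54. Samples of the same number are different mice, and their deviations from the group means correlated at −0.14, −0.16 and 0.07 across genes. Between mice of different number the correlations ran from −0.46 to 0.54. With 3 mice per group, these values cannot settle whether the numbers pair the mice. The paired fit with the replicate block left 409 lower genes at an unadjusted p below 0.05, against 477 without it. With no read totals, the counting error of *Nr4a2*, *Nr4a3* and *Fosb*, the lowest of the 10 genes, is unknown.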
